A study of Mus musculus with 12 samples.

Results

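The genes described here encode inducible heat shock proteins and their co-chaperones: Hspa1a, Hspa1b, Hspb1, Hsph1, Dnajb1, Hspa8, Hsp90aa1, Cryab, Bag3 and Hspe1. They were chosen by gene symbol, as every probe set that the array annotation assigns to 1 of these 10 symbols alone. They are 10 of 12393 genes with such a probe set, and hold 23 of the 22690 probe sets on the array. Hspa1a, Hspa1b, Dnajb1, Hsph1, Bag3, Hspb1 and Hsp90aa1 were treated as inducible (14 probe sets), and Hspa8, Cryab and Hspe1 as constitutive in the heart (9 probe sets). The RNA came from C57Bl/6 mouse hearts, 1 array per mouse, in 4 groups of 3. Wake MI hearts had the left anterior descending coronary artery tied off (myocardial infarction) between zeitgeber time (ZT, hours from lights on) 13 and 15, and wake sham hearts had sham surgery in the same hours. Sleep MI and sleep sham hearts had the same operations between ZT 1 and 3. All hearts were collected 8 hours after surgery, at ZT 23 in the wake groups and ZT 11 in the sleep groups, so time of surgery and time of collection cannot be told apart. The MI samples are labelled as infarcted myocardium, and the sources used here give neither the region taken from sham hearts nor age and sex.

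Heat shock proteins are molecular chaperones that bind unfolded or damaged proteins and keep them from aggregating. HSP70 proteins work in cycles of ATP binding that J proteins such as Dnajb1 start and that nucleotide exchange factors such as Hsph1 and Bag3 complete. Under stress, heat shock factor 1 forms trimers that bind heat shock elements, inverted repeats of the letters GAA, in front of the inducible genes. In heart muscle the small heat shock proteins Hspb1 and Cryab are abundant and associate with sarcomeres and the cytoskeleton.

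The upstream sequences of 4 members are shown because they hold such inverted repeats and belong to genes that behaved differently after MI. Each is the 250 bases before a RefSeq gene start on build GRCm38.p6, read 5′ to 3′ on the gene's strand, and capitals mark every match to GAANNTTC or TTCNNGAA.
Hspa1a, chr17:34972157-34972406, minus strand: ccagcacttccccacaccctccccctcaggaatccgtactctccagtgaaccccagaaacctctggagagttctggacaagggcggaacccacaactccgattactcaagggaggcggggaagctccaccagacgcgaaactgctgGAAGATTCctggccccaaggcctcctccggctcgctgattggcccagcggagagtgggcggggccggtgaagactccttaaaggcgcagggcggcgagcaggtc
Hspa1b, chr17:34959239-34959488, minus strand: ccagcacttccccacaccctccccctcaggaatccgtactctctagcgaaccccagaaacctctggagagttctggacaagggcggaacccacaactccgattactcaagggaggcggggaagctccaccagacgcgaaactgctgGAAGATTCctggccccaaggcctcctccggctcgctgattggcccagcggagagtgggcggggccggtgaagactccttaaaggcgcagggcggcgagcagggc
Hspb1, chr5:135887669-135887918, plus strand: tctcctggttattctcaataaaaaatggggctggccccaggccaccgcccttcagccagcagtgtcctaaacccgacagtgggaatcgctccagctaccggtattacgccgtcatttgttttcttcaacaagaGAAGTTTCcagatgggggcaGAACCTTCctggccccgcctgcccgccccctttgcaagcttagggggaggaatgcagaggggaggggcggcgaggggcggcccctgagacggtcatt
Hspe1, chr1:55087898-55088147, plus strand: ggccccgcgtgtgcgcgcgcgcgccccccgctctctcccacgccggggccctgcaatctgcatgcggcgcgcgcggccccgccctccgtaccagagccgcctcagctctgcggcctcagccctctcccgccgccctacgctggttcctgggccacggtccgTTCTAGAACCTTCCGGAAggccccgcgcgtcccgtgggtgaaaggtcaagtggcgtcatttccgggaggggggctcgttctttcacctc
The Hspa1a and Hspa1b windows were the same at 247 of 250 bases (98.8%). The 3 differences were C44T, T47C and T249G, with the Hspa1a base first and positions counted from 1 at the 5′ end of the window. Both windows held 1 match, GAAGATTC, that began 104 bases before the gene start. The Hspb1 window held GAAGTTTC at 117 bases and GAACCTTC at 97 bases before the start. In the Hspe1 window 3 matches overlapped, beginning 89, 84 and 79 bases before the start, and together they contained the longer forms TTCNNGAANNTTC and GAANNTTCNNGAA. Over both strands, 12.8% of 32851 mouse upstream windows of the same length held the shorter motif and 0.466% the longer one. Of the 7 members with a window in the sequence table, 5 held the shorter motif. Hsph1 was the other member with a match (TTCTCGAA), and the windows of Bag3 and Dnajb1 held none of these letters in this arrangement. A match is a description of letters, and binding was not measured.

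Signals are the MAS5 values as deposited, on a linear scale. They can be compared between arrays for 1 probe set and not between probe sets, since probes differ in affinity. Changes are given on the scale of log2(signal + 16), which understates those of dim probe sets, and were tested in 1 limma model over 13583 probe sets. A probe set was called where its Benjamini-Hochberg adjusted p was below 0.05, and 22 of the 23 member probe sets were bright enough to be tested. The remaining one, Cryab probe set 1435837_at, lay between 2.38 and 10.6 on all 12 arrays.

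Arrays of the same group correlated at 0.973 to 0.989 and arrays of different groups at 0.952 to 0.989 over the probe sets tested, and their median signals lay between 32.7 and 34.7. Beta-actin control probes near the 3′ end of the transcript were brighter than those near the 5′ end. Their ratio, 3′ over 5′, is read as a measure of RNA integrity, with higher values for less intact RNA. That ratio averaged 2.60 ± 0.62 in wake MI and 1.79 ± 0.02 in wake sham hearts (SD, n = 3 each). It averaged 2.40 ± 0.45 in sleep MI hearts, against 2.18 ± 0.28 in sleep sham hearts. Cardiomyocyte markers were bright everywhere: 8 of 8 were tested, 2 were higher over both times, and their summed signal was 61850 to 72810 in wake MI, 57180 to 65110 in wake sham, 65010 to 74030 in sleep MI and 52650 to 71490 for sleep sham. All 3 neutrophil markers tested were higher after MI, with sums of 862.5 to 1185 in wake MI, 120.6 to 510.5 in wake sham, 1001 to 1817 in sleep MI and 268.5 to 800.0 for sleep sham. Of 5 fibroblast markers 2 were lower (Col1a1 and Dcn), with sums of 4971 to 6182 in wake MI hearts, wholly below the 6856 to 9805 in wake sham hearts, and of 6845 to 8312 in sleep MI against 6757 to 9270 in sleep sham hearts. Of 5 endothelial markers 2 were higher (Cdh5 and Kdr), with sums of 1568 to 2220 in wake MI, 1689 to 1993 in wake sham, 1550 to 1883 in sleep MI and 1449 to 1685 for sleep sham. Of 5 monocyte and macrophage markers 1 was higher (Cd14, by 0.997 on the log2 scale), with sums of 1003 to 1451 in wake MI, 1117 to 1654 in wake sham, 1218 to 1346 in sleep MI and 1044 to 1244 for sleep sham. None of 4 smooth muscle and pericyte or 2 erythroid markers was called. T and B cell markers did not reach the level filter. The summed signal of 3 atrial markers was 45.4 to 53.6 in wake MI, 258.6 to 8715 in wake sham, 334.8 to 1245 in sleep MI and 72.0 to 608.9 for sleep sham. The part of RNA integrity, infiltrating cells and sampled region in the changes below was not tested, apart from the fit with the beta-actin ratio given with the counts. In bulk tissue, fewer cells of a type and less RNA per cell cannot be told apart.

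Hspa1a and Hspa1b, which encode the stress-inducible forms of HSP70, rose furthest after MI among the members, at both times of day. Hspa1a lies at chr17:34969359-34972156 and Hspa1b at chr17:34956429-34959238. The Hspa1a probe set 1452388_at had signals of 244, 789 and 666 in wake MI hearts, against 33.3, 31.9 and 35.4 in wake sham hearts. It had 967, 566 and 930 in sleep MI hearts, against 36.6, 29.6 and 17.1 in sleep sham hearts. Every MI array lay far above every sham array, and wake MI replicate 1 was the lowest of the 6 MI arrays. Over both times the log2 change was 3.82 (SE 0.23), a 14.1-fold rise with a limma adjusted p of 3.82e-07. It was 10.5-fold in wake hearts (adjusted p = 4.34e-05) and 18.9-fold in sleep hearts (adjusted p = 8.31e-06).

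The 3 probe sets of Hspa1b gave larger values in the same direction. Probe set 1427126_at had 287, 1286 and 623 in wake MI hearts, against 34.3, 26.9 and 46.3 in wake sham hearts. In sleep MI hearts it had 1682, 1061 and 1383, against 45.9, 30.7 and 21.0 in sleep sham hearts. Over both times this was an 18.9-fold rise (log2 4.24, SE 0.27, limma adjusted p = 3.82e-07). Probe set 1452318_a_at, the brightest of the 3 after MI, had 451, 3135 and 1981 in wake MI hearts, against 59.4, 38.2 and 114.5 in wake sham hearts. It had 3595, 2263 and 2938 in sleep MI hearts, against 56.1, 31.9 and 43.3 in sleep sham hearts. MI and sham arrays did not overlap, and the spread was widest among the wake MI arrays. Its rise was 29.5-fold over both times (log2 4.88, SE 0.36), 17.7-fold in wake hearts and 49.1-fold in sleep hearts, and without wake MI replicate 1 the wake value was 30.9-fold. Probe set 1427127_x_at rose 20.2-fold over both times (log2 4.34, SE 0.27). Fold sizes of the 4 HSP70 probe sets depended on the constant added before taking logs: with 64 in place of 16 they were 7.47-fold for Hspa1a and 10.1-fold to 17.7-fold for Hspa1b over both times. The coding parts of Hspa1a and Hspa1b are near-identical, and the suffix _x marks a probe set that the manufacturer regards as shared between transcripts. Signal of one gene may therefore include the other.

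**Figure D1:**
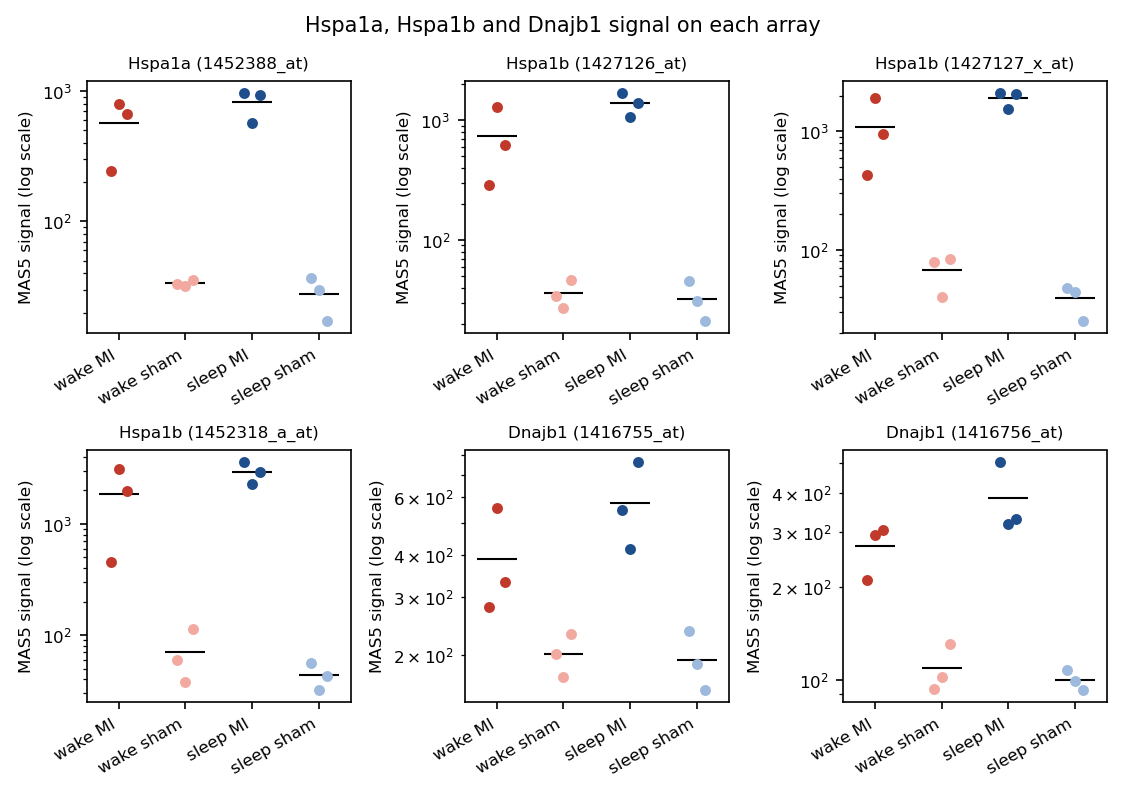
Deposited MAS5 signal (log axis) of the inducible HSP70 and J protein probe sets in each of the 12 arrays, with points for arrays and bars for the group means. All 6 MI arrays of each Hspa1a and Hspa1b probe set lie above all 6 sham arrays, and wake MI replicate 1 is the lowest MI array.

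Dnajb1, the J protein that hands clients to HSP70 and stimulates its ATP use, rose after MI with both of its probe sets. The gene lies at chr8:83608175-83612653. Probe set 1416756_at had 209, 294 and 305 in wake MI hearts, against 93.5, 102.3 and 131.0 in wake sham hearts. It had 504, 318 and 331 in sleep MI hearts, against 107.4, 99.3 and 92.6 in sleep sham hearts. The MI arrays stood above the sham arrays at both times. The rise over both times was 2.78-fold (log2 1.47, SE 0.13, limma adjusted p = 6.53e-06), and the log2 change was 1.18 in wake and 1.76 in sleep hearts. Probe set 1416755_at rose 2.23-fold over both times (log2 1.16, SE 0.17, adjusted p = 0.000518). Its wake change of 0.85 had an adjusted p of 0.0297, and the call ended without wake MI replicate 2 or without any of the 3 wake sham arrays, with adjusted p from 0.0505 to 0.116.

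Hsph1 and Bag3, which release ADP from HSP70, had the smallest changes of the inducible members. Hsph1, an HSP110 protein, lies at chr5:149616843-149636498. Its probe set 1425993_a_at had 300.2, 566 and 440 in wake MI hearts, against 317, 252 and 336 in wake sham hearts. It had 340.0, 319 and 460.3 in sleep MI hearts, against 330.3, 265 and 210.3 in sleep sham hearts. MI and sham arrays overlapped at both times. The rise over both times was 1.38-fold (log2 0.46, SE 0.15) with a limma adjusted p of 0.0444. That call was lost when 9 of the 12 arrays were left out one at a time, with adjusted p from 0.0560 to 0.106 (all but wake MI replicate 1, sleep MI replicate 2 and sleep sham replicate 1). The second Hsph1 probe set, 1423566_a_at, did not pass (log2 0.23, SE 0.16, adjusted p = 0.319).

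Bag3, a scaffold that couples HSP70 to small heat shock proteins and to autophagy in muscle, lies at chr7:128523583-128546981. Its probe set 1422452_at had 1251, 1300.0 and 1197 in wake MI hearts, against 1153, 1195 and 957 in wake sham hearts. In sleep MI hearts it had 1157, 1195 and 1390.0, against 1139, 1114 and 1035 in sleep sham hearts. Within each time the MI arrays lay just above the sham arrays, by margins that were small beside the spread within groups. The log2 difference over both times was 0.18 (95% confidence interval 0.02 to 0.35), and it did not pass (limma adjusted p = 0.105).

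Hspb1, the small heat shock protein known as HSP25 in mice, was bright in sham hearts and rose by a narrow, repeatable margin after MI. It lies at chr5:135887919-135889563. Probe set 1422943_a_at had 5825, 5741 and 5586 in wake MI hearts, against 3512, 2891 and 3373 in wake sham hearts. It had 5991, 5443 and 6537 in sleep MI hearts, against 3353, 2939 and 3501 in sleep sham hearts. No MI array came near any sham array. The rise was 1.79-fold (log2 0.84, SE 0.07, limma adjusted p = 6.21e-06). Probe set 1425964_x_at, with 3930 to 4667 in the MI arrays and 2037 to 2411 in the sham arrays, rose 1.99-fold (log2 0.99, SE 0.07, adjusted p = 9.33e-07). The log2 changes of the 2 probe sets were 0.81 and 0.94 in wake hearts and 0.87 and 1.05 in sleep hearts.

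Hsp90aa1, the inducible form of cytosolic HSP90, which matures kinases and steroid receptors, rose with all 3 of its probe sets over both times. The gene lies at chr12:110691036-110696395. Probe set 1426645_at had 398, 559 and 359 in wake MI hearts, against 351, 299.7 and 356 in wake sham hearts. It had 521, 476 and 534 in sleep MI hearts, against 319, 262 and 227 in sleep sham hearts. The groups did not overlap, but in wake hearts the lowest MI array was only just above the highest sham array. The rise over both times was 1.54-fold (log2 0.62, SE 0.11, limma adjusted p = 0.00184). The log2 change was 0.35 in wake hearts, which did not pass (adjusted p = 0.140), and 0.89 in sleep hearts (adjusted p = 0.00993). The sleep call ended without sleep MI replicate 1 (adjusted p = 0.0520) or sleep sham replicate 3 (adjusted p = 0.0516).

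Probe set 1438902_a_at of Hsp90aa1 had 1052, 2034 and 1807 in wake MI hearts, against 954, 946 and 1006 in wake sham hearts. It had 1662, 1377 and 1908 in sleep MI hearts, against 870.3, 1182 and 598 in sleep sham hearts. Wake MI replicate 1 lay close to the sham arrays, and sleep sham replicate 2 lay above it. Over both times the rise was 1.75-fold (log2 0.81, SE 0.17, limma adjusted p = 0.00467). Probe set 1437497_a_at rose 1.52-fold (log2 0.60, SE 0.12, adjusted p = 0.00411). Once the beta-actin ratio entered the fit as a covariate, neither of these 2 probe sets passed over both times (adjusted p = 0.103 for 1438902_a_at and 0.101 for 1437497_a_at), and 1426645_at stayed called. The wake change of 1437497_a_at, 0.56 on the log2 scale, had a limma adjusted p of 0.0419. In 8 of the 12 single omissions that call ended, with adjusted p from 0.0516 to 0.156. It was kept without wake MI replicate 1, sleep MI replicate 3, sleep sham replicate 1 or sleep sham replicate 3.

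**Figure D2:**
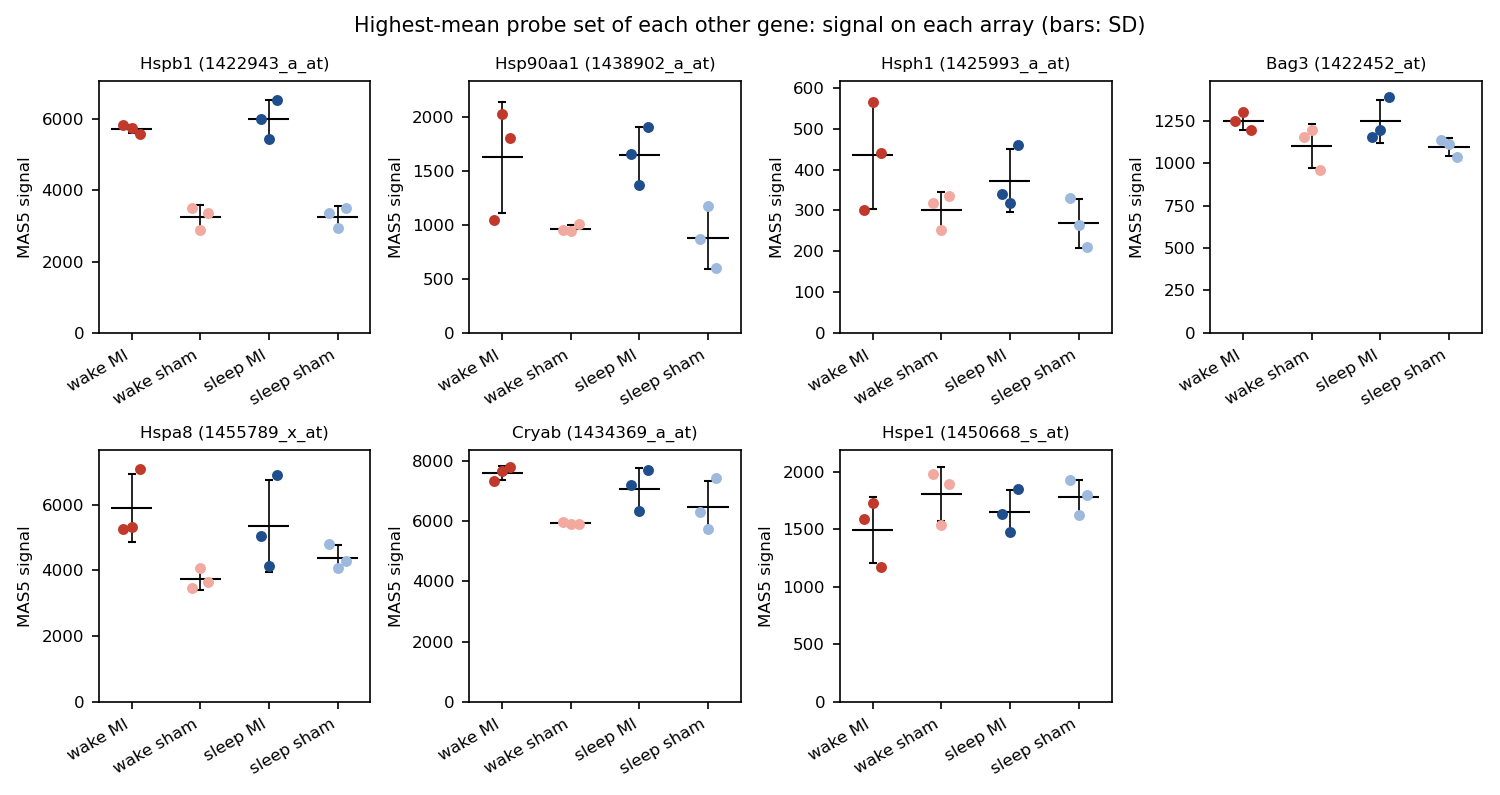
Deposited MAS5 signal (linear axis from 0) of 1 probe set each for Hspb1, Hsp90aa1, Hsph1, Bag3, Hspa8, Cryab and Hspe1 in each of the 12 arrays, with points for arrays and bars for the group means and SD. Hspb1 separates MI from sham with no overlap at either time, while MI and sham arrays of the other 6 overlap over both times.

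Among the constitutive members, Hspa8, the HSP70 form present in unstressed cells and a driver of clathrin uncoating, gave mixed results over its 4 probe sets. The gene lies at chr9:40801276-40805202. Its brightest probe set, 1455789_x_at, had 5270.0, 5326 and 7106 in wake MI hearts, against 3462, 4085 and 3655 in wake sham hearts. It had 5043, 4130.0 and 6898 in sleep MI hearts, against 4815, 4066 and 4275 in sleep sham hearts. The wake groups did not overlap and the sleep groups did. The rise over both times was 1.37-fold (log2 0.45, SE 0.11, limma adjusted p = 0.0144). In wake hearts it was 0.65 on the log2 scale (adjusted p = 0.0163, lost when wake MI replicate 3 or either of wake sham replicates 1 and 3 was left out, at 0.0560 to 0.0656), and in sleep hearts the difference of 0.26 did not pass. With the beta-actin ratio in the fit, neither call was kept: the change was 1.12-fold over both times (adjusted p = 0.359) and 1.13-fold in wake hearts (adjusted p = 0.565).

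The dim Hspa8 probe set 1431182_at behaved otherwise. It had 49.1, 83.1 and 105.3 in wake MI hearts, against 86.9, 48.7 and 100.3 in wake sham hearts. It had 96.3, 80.3 and 114.3 in sleep MI hearts, against 45.9, 28.8 and 19.1 in sleep sham hearts. The 3 sleep sham arrays were the lowest of the 12, and the wake groups covered the same range. It was called over both times (log2 0.65, limma adjusted p = 0.0263) and in sleep hearts (log2 1.29, adjusted p = 0.0208). The first call ended in 6 single omissions (wake MI replicates 2 and 3, wake sham replicate 2, sleep MI replicates 1 and 3, sleep sham replicate 3), at 0.0503 to 0.0659. The second ended in 3 (sleep MI replicates 1 and 3, sleep sham replicate 3), at 0.0841 to 0.102. Probe sets 1420622_a_at (log2 0.37, adjusted p = 0.153) and 1420623_x_at (log2 0.23, adjusted p = 0.0507) did not pass over both times. The former was called without sleep sham replicate 2 (adjusted p = 0.0262). The latter was called under 5 alternatives, at 0.0265 to 0.0483. These were the 60th percentile filter, quantile normalization, median centring, a robust prior, and the omission of sleep MI replicate 2.

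Cryab, the small heat shock protein that binds desmin and titin, was among the bright probe sets in every group. It lies at chr9:50745951-50756636. Probe set 1434369_a_at had 7344, 7680.0 and 7789 in wake MI hearts, against 5954, 5912 and 5913 in wake sham hearts. It had 7205, 6333 and 7685 in sleep MI hearts, against 6303, 5730.0 and 7415 in sleep sham hearts. The 3 wake sham arrays were nearly equal and lay below the wake MI arrays, while the sleep groups overlapped. The rise was 1.18-fold over both times (log2 0.24, SE 0.07, limma adjusted p = 0.0286), a call lost in 8 of 12 single omissions at 0.0539 to 0.0724 (all but wake MI replicate 1, sleep MI replicate 2, sleep sham replicate 2 and sleep sham replicate 3). In wake hearts the log2 change was 0.36 (adjusted p = 0.0277), lost in 5 omissions (every wake array but wake MI replicate 1), at 0.0676 to 0.0818. Probe set 1416455_a_at did not pass (log2 0.13, adjusted p = 0.326).

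Hspe1, the HSP10 lid of the mitochondrial chaperonin, was the only member whose tested probe sets had negative estimates over both times. It lies at chr1:55088148-55091317. Probe set 1422579_at had 607, 644 and 360 in wake MI hearts, against 693, 616 and 908 in wake sham hearts. It had 487, 606 and 429 in sleep MI hearts, against 628, 550.4 and 800.3 in sleep sham hearts. The groups overlapped at both times, and the difference of -0.42 (SE 0.15) did not pass (limma adjusted p = 0.0648). It was called without wake MI replicate 2 (adjusted p = 0.0456) or sleep sham replicate 2 (adjusted p = 0.0490). Probe set 1450668_s_at gave -0.19 (adjusted p = 0.197). The upstream window of Hspe1 held the longer heat shock motif shown above, and those of Hspa1a and Hspa1b, which rose over 10-fold, held the shorter one.

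Counted over the 2 classes, a larger share of inducible than of constitutive probe sets was called. The inducible count includes the Hspa1a and Hspa1b probe sets, whose signals may include each other. Counted by gene the classes were closer: every inducible gene but Bag3 and every constitutive gene but Hspe1 had a call over both times. Over both times 12 of 14 inducible and 3 of 8 constitutive probe sets were higher after MI and 0 were lower, against 8.3% of all probe sets tested called higher and 11.2% called lower. The median log2 change was 0.92 (range 0.18 to 4.88) for inducible and 0.24 (range -0.42 to 0.65) for constitutive probe sets, and -0.04 for all probe sets tested. MI arrays lay wholly above sham arrays in 9 of 14 inducible and 0 of 8 constitutive probe sets, against 3.03% of all probe sets tested. The 9 were those of Hspa1a, Hspa1b, Dnajb1 and Hspb1 and 1 of Hsp90aa1, and their calls over both times remained under every alternative that tested them. Once the beta-actin ratio entered the fit as a covariate, 9 member probe sets were called, in place of 15. The calls lost were those of Hsph1 (1425993_a_at), Hsp90aa1 (1437497_a_at and 1438902_a_at), Hspa8 (1431182_at and 1455789_x_at) and Cryab (1434369_a_at).

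In wake hearts 9 of 14 inducible and 2 of 8 constitutive probe sets were higher, and 0 were lower, against 7.5% of all probe sets tested called higher and 8.78% called lower. The wake total of 11 fell to 7 without wake sham replicate 1, to 7 without wake sham replicate 3 and to 7 once the beta-actin ratio entered the fit, which ended the wake calls of Dnajb1 (1416755_at), Hsp90aa1 (1437497_a_at), Hspa8 (1455789_x_at) and Cryab (1434369_a_at). In sleep hearts 9 of 14 inducible and 1 of 8 constitutive probe sets were higher, and 0 were lower, against 1.41% called higher and 0.692% called lower of all probe sets tested. Arrays did not overlap, with MI higher, in 12 inducible and 4 constitutive probe sets in wake hearts, against 14.5% of all probe sets tested. In sleep hearts this held for 12 inducible and 1 constitutive probe set, against 8.43%. The same genes, Hspa1a, Hspa1b, Dnajb1 and Hspb1, were called with every probe set at each time. Bag3, Hsph1 and Hspe1 had no call at either time taken alone.

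The classes were also set against each other inside each array, for 3 pairs of related proteins chosen after the values were seen, so the values are a description with no test. The within-array difference between the members of a pair depends on their probes, so only its change, MI minus sham, was read. The change of Hspa1a exceeded that of Hspa8 by 3.37 on the log2 scale (SE 0.27), with 2.75 in wake and 3.99 in sleep hearts. That of Hspb1 exceeded that of Cryab by 0.60 (SE 0.05), with 0.45 in wake and 0.74 in sleep hearts. In both pairs the 6 MI arrays did not overlap the 6 sham arrays. Hsph1 and Hspa4, its constitutive HSP110 relative, differed in their change by 0.17 (SE 0.19), and the arrays overlapped.

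Wake and sleep hearts were compared next, to ask whether the response depended on the time of day. Among MI hearts 0 of 22 member probe sets were called by limma, against 0.0442% of all probe sets tested, and 4 had an unadjusted p below 0.05. All 4 were lower in wake MI than in sleep MI hearts: 1427126_at and 1427127_x_at of Hspa1b and both probe sets of Dnajb1. The share of all probe sets tested at that unadjusted level is not given for this or the following comparisons. Such counts are descriptions only. The log2 difference, wake MI minus sleep MI, was -0.64 for Hspa1a (95% confidence interval -1.35 to 0.07, adjusted p = 0.837). For Hspa1b it was -1.11 (interval -1.92 to -0.31, adjusted p = 0.763) with 1427126_at, -1.02 with 1427127_x_at and -1.02 with 1452318_a_at. Much of this came from 1 array: without wake MI replicate 1 the differences were -0.14 for Hspa1a and -0.58, -0.49 and -0.21 for the Hspa1b probe sets. For Dnajb1 probe set 1416756_at the difference was -0.48 (adjusted p = 0.792), and all 3 wake MI arrays lay below all 3 sleep MI arrays, an order seen in 4.35% of all probe sets tested. Hspb1 gave -0.06 and 0.01 with its 2 probe sets, and the interval of the first ran from -0.28 to 0.16.

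Among sham hearts 0 of 22 member probe sets differed by limma, against 1.24% of all probe sets tested, and 1 had an unadjusted p below 0.05. That was the dim Hspa8 probe set 1431182_at, whose 3 wake sham arrays (86.9, 48.7 and 100.3) lay above its 3 sleep sham arrays (45.9, 28.8 and 19.1), an order seen in 11.3% of all probe sets tested. The 95% confidence interval of its log2 difference was 0.44 to 1.56, with an adjusted p of 0.0943, and of 0.0309 without wake sham replicate 2. Hspa1a differed by 0.20 between wake and sleep sham hearts (adjusted p = 0.839), and Hspb1 by less than 0.12 with either probe set.

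The change after MI in wake hearts minus that in sleep hearts was tested as an interaction, which called 0 of 22 member probe sets and 0% of all probe sets tested. An unadjusted p below 0.05 was reached by 5 member probe sets, all with a smaller rise in wake hearts. They were 1427126_at and 1427127_x_at of Hspa1b, whose signals may be shared, 1416756_at of Dnajb1, 1426645_at of Hsp90aa1 and 1431182_at of Hspa8. With no share over all probe sets beside it, this count is a description only. The lowest limma adjusted p was 0.277, for Hspa8 probe set 1431182_at. The median over inducible probe sets was -0.44, against -0.01 over all probe sets tested. It was -0.84 for Hspa1a (adjusted p = 0.549), and -1.22, -1.60 and -1.48 for the Hspa1b probe sets 1427126_at, 1427127_x_at and 1452318_a_at (adjusted p = 0.458, 0.355 and 0.495). Without wake MI replicate 1 these 4 values were -0.34, -0.69, -1.07 and -0.67. For Dnajb1 they were -0.63 and -0.58, and for Hspb1 -0.06 and -0.11. The estimates of Hspa1a and Hspa1b thus ran toward a larger change in sleep hearts, and none passed the test. Those of Hspa8 ran both ways, with -1.28 for 1431182_at. Its probe sets 1420622_a_at, 1420623_x_at and 1455789_x_at gave 0.44, 0.16 and 0.39, a larger change in wake hearts.

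Of 67 other chaperone genes, listed by family, 56 were tested, each by its brightest probe set. Over both times 11 were higher after MI, 5 were lower and 40 did not pass, against 8.3% of all probe sets tested called higher and 11.2% lower, and their median log2 change was 0.05. The J proteins held 6 of the 11. Dnajb4, a cytosolic J protein related to Dnajb1, averaged 1344 ± 213 in wake MI and 823 ± 17.2 in wake sham hearts, and 1729 ± 72.8 in sleep MI against 987 ± 100.3 in sleep sham hearts (SD, 3 arrays each). Its log2 change was 0.74 (SE 0.08, limma adjusted p = 5.49e-05). Bag2, an inhibitor of the CHIP ubiquitin ligase bound to HSP70, rose by 0.58 (adjusted p = 0.000848). These were also the 2 genes of the lists called in sleep hearts taken alone, with 0.80 for Dnajb4 and 0.66 for Bag2. The sleep call of Bag2 ended without sleep MI replicate 1 or 3 or sleep sham replicate 1 or 3, at 0.0596 to 0.0997. Dnajb4 and Bag2 were the 2 genes of the lists whose calls over both times remained under every alternative.

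Hmox1, the haem-degrading enzyme that heat and oxidants induce, rose by 1.13 (SE 0.23, limma adjusted p = 0.00406). Dnaja4 and Dnajb5, both J proteins, each rose by 0.52, and Dnajc3, a J protein of the endoplasmic reticulum, by 0.46. These 4 calls over both times held in every single omission and were lost once the beta-actin ratio entered the fit. Hspa4 was higher by 0.30 and Hspa5, the HSP70 of the endoplasmic reticulum, by 0.34, and the call of Hspa4 ended without wake sham replicate 3 (adjusted p = 0.0525). That of Hspa5 ended in 7 single omissions (wake MI replicates 2 and 3, wake sham replicates 2 and 3, sleep MI replicates 1 and 3, sleep sham replicate 3), at 0.0506 to 0.0702. Chordc1, a partner of HSP90, was lower by 0.41 on the log2 scale (SE 0.12), and 5 single omissions ended that call (wake MI replicate 2, wake sham replicate 3, sleep MI replicates 1 and 2, sleep sham replicate 1). Cct6a was higher by 0.25, and Fkbp4 (-0.27), Hspa4l (-0.32), St13 (-0.23) and Dnajb2 (-0.22) were the other genes called lower, each in a call that 7 to 9 single omissions ended. Of these, from Hspa4 on, the call of Chordc1 alone stayed once the beta-actin ratio entered the fit. In wake hearts 10 of the 56 were higher and 5 lower. By adjusted p the first of the higher genes were Dnajb4 (log2 0.69), Hspa5 (0.60), Dnajc3 (0.65) and Bag2 (0.50), and those of the lower were Hspa4l (-0.61), Chordc1 (-0.65), Dnajb2 (-0.33) and Hsbp1 (-0.62). By size, Hmox1 was the highest of the 10 at 1.23. Once the beta-actin ratio entered the fit, the wake calls of all 15 were lost but that of Chordc1, with an adjusted p of 0.0887 for Dnajb4, 0.345 for Hspa5, 0.147 for Dnajc3 and 0.326 for Hspa4l. Single omissions ended the wake calls of all but Dnajb4 and Hspa5. Among families over both times, 1 of 9 chaperonins was called (Cct6a, higher), 0 of 4 other small heat shock proteins and 0 of 2 heat shock factors and their regulators. Hspd1, the mitochondrial chaperonin that Hspe1 caps, gave -0.00 (adjusted p = 0.995), and Hspa9, the mitochondrial HSP70, 0.07 (adjusted p = 0.580). Values for Hsp90ab1, Hspb6 and Hsf1, which are also on the lists, are not reported here.

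**Figure D3:**
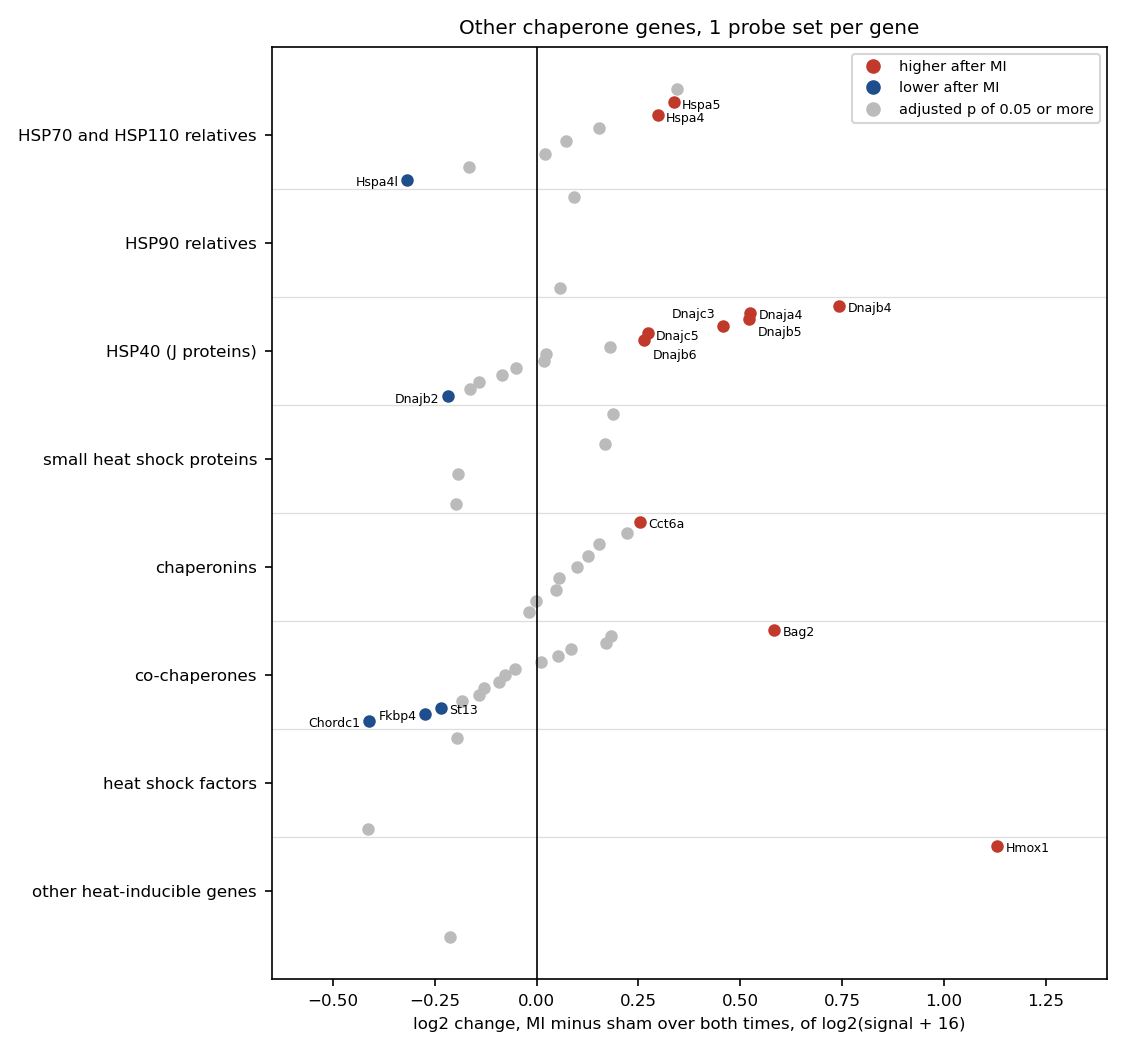
Log2 change after MI over both times (MI minus sham) of 56 other chaperone genes, 1 point per gene, grouped by family, with called genes coloured and named. Dnajb4 at 0.74 is the highest J protein, Hmox1 lies at 1.13, and Chordc1 at -0.41 is the lowest called gene.

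The genes whose log2 signals followed members most closely were sought among 8101 genes, as a description over 12 arrays that fall into MI and sham sets. Hspa1a was followed by Atf3 (Pearson r = 0.993), a stress-induced transcription factor, by Xirp1 (0.993), an actin-binding protein of the intercalated disc, and by Adamts1 (0.982), Akap12 (0.981) and Gadd45g (0.977). Hspb1 was followed by Xirp1 (0.969), Ralb (0.954), Flnc (0.953), a filamin of striated muscle, Atf3 (0.945) and Adamts1 (0.943). Hspa8 had other neighbours, led by Cttn (0.930) and Lpin2 (0.927), with Cndp2, Hnrnpf and Ccnl2 after them.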

How the data were processed

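Heart RNA of 12 mice was extracted with Trizol from snap-frozen tissue and hybridised to 12 single-label Affymetrix arrays, per the labels' protocols. The deposited values are an intensity (signal) per probe set on a linear scale, which the authors made with the MAS5 method, per the submitters' processing notes. The sources used here state no MAS5 settings, detection calls, batches or scan dates. Of 22690 probe sets, 64 controls were left out. The platform annotation gave 1 symbol to 20380, several to 691 and none to 1555 of the others.

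The probe sets with a mean signal of at least 17.3 over all arrays (the 40th percentile), 13583 in all, were tested as log2(signal + 16) with limma 3.58.1 in R 4.3.3. The model had 1 mean per group over 12 arrays, an intensity trend and 8 residual degrees of freedom (14.3 with the prior). Tests were two-sided, with Benjamini-Hochberg adjustment over all 13583 in each of 6 comparisons. With 3 arrays on each side, exact permutation reaches a two-sided p of 0.1 at the lowest, and single probe sets were therefore tested by limma only. The number of arrays limits the precision. The labels call the mice of a group biological replicates.

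All probe sets of the members are named. Of the other chaperones, the called genes with the smallest adjusted p are named, up to 8 in a direction over both times and 4 elsewhere. The members, classes and lists were chosen with earlier results of these data known. Alternatives were pseudocounts of 1 and 64, quantile normalization, median centring, the 60th percentile as filter or none, 1 probe set per gene, no trend, a robust prior, the log2 beta-actin ratio as covariate, only the compared groups, replicate number as block, and each array left out. Upstream windows are RefSeq's on GRCm38.p6. The fit was tested on simulated data. Figures used Python 3.11.15, numpy 2.4.6, pandas 2.3.3 and matplotlib 3.10.9.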

Additional observations from a re-analysis of the deposited data

How the results depend on the processing

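No call given for a member or a listed chaperone gene changed direction under any alternative run. Over both times 15 member probe sets were called, 9 once the beta-actin ratio entered as a covariate, 8 with 1 probe set per gene (10 genes), and 12 to 16 with single arrays left out. In wake hearts 11 were called, 7 with the beta-actin covariate, 6 with 1 probe set per gene, and 7 to 13 with arrays left out. In sleep hearts 10 were called, 4 with 1 probe set per gene and 8 to 12 with arrays left out. The counts with 1 probe set per gene cover fewer probe sets, and the one kept for a gene was not always one called. In sleep hearts Hsp90aa1 was called with 1426645_at, while its brightest probe set, 1438902_a_at, did not pass (limma adjusted p = 0.0621). Between wake and sleep sham hearts 0 were called, 1 with the beta-actin covariate, and 0 to 1 with arrays left out. Between wake and sleep MI hearts, and for the difference of MI effects, 0 were called with each array left out. The cause of the shifts between settings was not tested. The deviations from group means of 18 same-numbered pairs of arrays correlated at -0.19 to 0.23, with 4 above 0.1. No value for pairs with different numbers is given, so whether replicate numbers pair the arrays was not decided. With the replicate number as a block 14 member probe sets were called over both times, 10 in wake and 10 in sleep hearts. MAS5 signals near the filter carry little information, and fold sizes of Hspa1a and Hspa1b, whose sham signals are low, depend on the added constant.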

Other observations

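The same arrays stood at the low end for many inducible probe sets. Among the 6 MI arrays, wake MI replicate 1 was the lowest in 10 of 14 inducible probe sets and in 1 of 8 constitutive ones. Among the 6 sham arrays, sleep sham replicate 3 was the lowest in 10 of 14 inducible probe sets and in 1 of 8 constitutive ones, and wake sham replicate 3 was the highest in 8 of 14 inducible ones. These counts were made for member probe sets only, so whether the arrays stood alike over all probe sets tested is not known. Probe sets of the same gene, and those of Hspa1a and Hspa1b, may share signal. Hspa4l, an HSP110 relative, was the 1 gene of 56 in the chaperone lists called between wake and sleep sham hearts (log2 0.67, limma adjusted p = 0.0430). It averaged 210.0 ± 11.4 in wake sham and 126 ± 9.88 in sleep sham hearts, against 134 ± 31.3 in wake MI and 124 ± 13.8 in sleep MI hearts (SD, n = 3 each). That call was lost in 9 of 12 single omissions, at adjusted p from 0.0551 to 0.212, and once the beta-actin ratio entered the fit (0.151).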
